A study of Saccharomyces cerevisiae with 9 samples.

Results

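The TIR, DAN and PAU genes of Saccharomyces cerevisiae encode related proteins, many of them of the cell surface. The TIR and DAN products are mannoproteins held in the cell wall by a glycosylphosphatidylinositol anchor, and the seripauperins (PAU) form a large subtelomeric family of close copies. Many of these genes are known to be induced when oxygen or haem is scarce, and TIR1 and TIR2 also by cold shock. Here 8 of them were followed, namely TIR1, TIR2, TIR3, TIR4, DAN1, DAN4, PAU4 and PAU18, chosen by gene name. Earlier results of these data were known at that choice, so a shared direction of the 8 genes supports nothing. Each had 1 probe set on the array, and all 8 were among the 5396 genes tested.

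The study addresses freeze-thaw injury in budding yeast. Cells of BY4741, a haploid laboratory strain, grew at 30 °C in YPD to log phase, and were washed and suspended in distilled water. One aliquot was left unfrozen (0 h), and others were held at -30 °C over 24 h or 48 h and thawed at 30 °C for 10 min. RNA enriched for poly(A), from 3 samples per group, was hybridised to 9 Affymetrix yeast arrays. Because the labels describe a thaw for the frozen aliquots only, effects of freezing, of the time in water and of thawing cannot be told apart. The labels mention both triplicates and 2 independent experiments, and the spread behind each p-value is that between arrays, which may be partly technical. The signal is that of RNA from whole cultures, in which fewer cells holding a transcript and less of it per cell cannot be told apart.

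Signals are given as log2 values, scaled so that the median S. cerevisiae probe set is equal on all arrays. Those for fission yeast (Schizosaccharomyces pombe) on the same arrays served as background, and the 95th percentile of their means, 2.21 on this scale, as the background threshold. Among the libraries, replicate 3 of each frozen group was the brightest, with median deposited signals of 679 at 24 h and 726 at 48 h, against 201 to 392 on the other 7 arrays. The median signal of 17 ribosomal RNA control probe sets was higher on all 6 frozen arrays (7.94 to 10.43 at 24 h, 7.64 to 9.80 at 48 h) than on the unfrozen ones (5.45 to 7.02), and its part in the differences below was not tested. Of the loci deleted in BY4741, URA3 lay under the threshold on all 9 arrays. MET17 ranged from 0.88 to 3.48 on unfrozen arrays, 2.35 to 2.88 at 24 h and 0.91 to 1.44 at 48 h, and LEU2 from 1.09 to 3.59 on unfrozen arrays, 3.69 to 4.19 at 24 h and 1.10 to 1.88 at 48 h. A deleted locus could therefore read above the threshold, and in 2 cases did on every 24 h array.

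All 8 genes had a lower mean signal in both frozen groups than in unfrozen cells, where 52.7% of all genes did at 24 h and 53% at 48 h, and 2 of them, the seripauperins PAU4 and PAU18, passed the test at both times. PAU4 was 3.62-fold lower after 24 h and 3.28-fold lower after 48 h, and PAU18 2.25-fold and 2.09-fold lower. DAN1 and TIR1 had larger mean log2 differences, -3.66 and -2.54 at 24 h and -4.28 and -3.18 at 48 h. They spread widely between arrays and did not pass, and the frozen DAN1 signals lay in part at or near background, so that no exact fold is given for that gene. The median difference of the 8 genes was -1.34 on the log2 scale at 24 h and -1.60 at 48 h, beside medians of -0.02 and -0.03 over all genes tested. Among all genes tested, 1% were called in either direction at 24 h and 2.91% at 48 h (limma, Benjamini-Hochberg adjusted p under 0.05), with 0.204% and 0.815% called lower. At unadjusted p under 0.05, 4 of the 8 genes were lower at 24 h and 5 at 48 h, against 3.93% and 6.45% of all genes lower and 10.7% and 16.4% in either direction. Frozen arrays lay entirely below the unfrozen ones for 5 of the 8 genes at each time, against 11.6% of all genes at 24 h and 10.6% at 48 h. Both comparisons share the same unfrozen arrays.

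**Figure D1:**
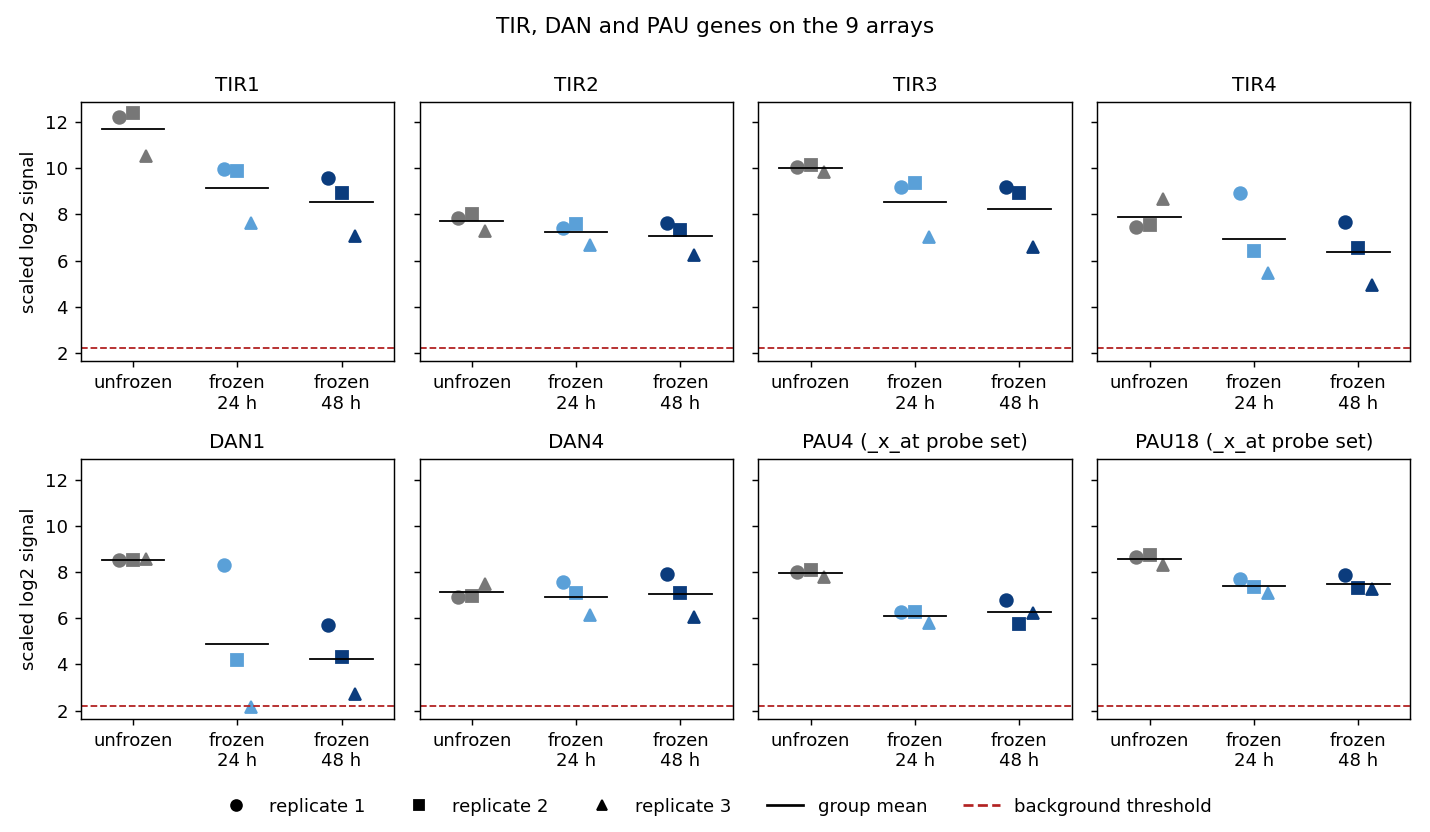
Scaled log2 signal (vertical axis) of each of the 8 genes in unfrozen cells and after 24 h and 48 h frozen, with 1 symbol per array, a black line for the group mean and a dashed line at the background threshold of 2.21. DAN1 is the most spread between arrays, with 8.28, 4.17 and 2.15 at 24 h, while PAU4 and PAU18 keep tight groups.

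TIR1 encodes a cell wall mannoprotein known from cold-shocked and anaerobic cells. Its scaled log2 signals were 12.20, 12.37 and 10.53 in unfrozen replicates 1 to 3, then 9.95, 9.88 and 7.64 after 24 h, and 9.58, 8.92 and 7.06 after 48 h. In the deposited linear units these were 5233, 3029 and 1409 in unfrozen cells, 851, 635 and 386 at 24 h and 661, 399 and 276 at 48 h. No frozen array reached an unfrozen one, and replicate 3 was the lowest array in each of the 3 groups. Taken by replicate number, the differences from unfrozen were -2.25, -2.49 and -2.89 at 24 h and -2.61, -3.45 and -3.47 at 48 h. The fit does not use these numbers, which showed no steady pairing of frozen and unfrozen arrays over all genes. Here and below, ± gives limma's moderated SE of a difference, with 3 arrays a group. Its spread is estimated from all 9 arrays and drawn towards the trend over genes. The difference was -2.54 ± 0.78 at 24 h (limma adjusted p = 0.216) and -3.18 ± 0.78 at 48 h (limma adjusted p = 0.0648). This was the third lowest difference among the 5396 genes at each time. The calls depended on the arrays used and on the processing. Of 25 alternatives, TIR1 passed in 4 at 24 h and in 8 at 48 h, and in the others it did not. Without frozen 24 h replicate 3 alone, the 24 h difference was -1.79 (limma adjusted p = 0.569). With replicate 3 left out in every group, TIR1 passed at -2.37 (limma adjusted p = 0.00267) and -3.03 (limma adjusted p = 0.000779). At 48 h it also passed without frozen 24 h replicate 3 (limma adjusted p = 0.0381), frozen 48 h replicate 1 (-3.71, limma adjusted p = 0.0422) or unfrozen replicate 3 (-3.76, limma adjusted p = 0.0491). At 48 h it passed as well when arrays were scaled over every probe set, at -3.52 (limma adjusted p = 0.0231). The values as deposited, which keep the differences in brightness between arrays, gave -2.25 and -2.75 (limma adjusted p = 0.0389 and 0.0013).

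TIR2 and TIR4 are neighbours in the S288C reference annotation (assembly R64), next to AUS1, which encodes a sterol importer. TIR2, also named SRP2 and known as cold-inducible, had signals of 7.82, 8.01 and 7.26 in unfrozen cells, 7.39, 7.57 and 6.69 at 24 h and 7.61, 7.32 and 6.26 at 48 h. Its groups overlapped, and the differences of -0.48 ± 0.37 and -0.64 ± 0.37 did not pass (SE of 3 arrays a group; limma adjusted p = 0.727 and 0.436). The 95% intervals of these differences, -1.30 to 0.34 and -1.46 to 0.18, hold both a difference of 0 and a more than 2-fold lower level. TIR4 gave 7.44, 7.53 and 8.65 in unfrozen cells, 8.91, 6.43 and 5.44 at 24 h and 7.67, 6.56 and 4.93 at 48 h. Frozen 24 h replicate 1 exceeded all unfrozen arrays, and the differences of -0.95 ± 0.87 and -1.48 ± 0.87 did not pass (SE of 3 arrays a group; limma adjusted p = 0.775 and 0.439). Without replicate 3 in each group the TIR4 difference was 0.18 at 24 h and -0.37 at 48 h, and without frozen 24 h replicate 1 it was -1.94 at 24 h. AUS1 stood at 0.11 ± 0.61 and -0.10 ± 0.61.

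TIR3, which with TIR1 and TIR4 is known to be needed for growth without oxygen, had 10.07, 10.16 and 9.84 in unfrozen cells. It had 9.17, 9.37 and 7.01 at 24 h and 9.17, 8.93 and 6.58 at 48 h. The unfrozen arrays were close together and above every frozen array, while replicate 3 of each frozen group lay far below the other two. The differences were -1.50 ± 0.72 and -1.79 ± 0.72 (SE of 3 arrays a group; limma adjusted p = 0.507 and 0.253). Leaving out replicate 3 in every group brought them nearer to 0, at -0.84 at 24 h and -1.06 at 48 h, and the 48 h difference then passed (limma adjusted p = 0.0179).

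DAN1 and DAN4 are adjacent genes in the reference annotation and both are known from anaerobic cells, DAN1 as a gene repressed in the presence of oxygen. The 3 unfrozen arrays agreed closely for DAN1, at 8.51, 8.51 and 8.57. After 24 h the signals were 8.28, 4.17 and 2.15, and after 48 h they were 5.70, 4.32 and 2.73. Frozen 24 h replicate 1 was thus near the unfrozen level and replicate 3 under the background threshold, with no frozen array reaching the unfrozen ones. The 4.17 of frozen 24 h replicate 2 was about the level of the deleted locus LEU2 on that array, 4.19. DAN1 had the lowest difference of all 5396 genes at both times, -3.66 ± 1.27 and -4.28 ± 1.27, but neither passed (SE of 3 arrays a group; limma adjusted p = 0.292 and 0.122). The 24 h value was nearer to 0 without frozen 24 h replicate 3 (-2.30, limma adjusted p = 0.683) or without replicate 3 in each group (-2.28, limma adjusted p = 0.402), and at 48 h the value without replicate 3 in each group was -3.50 (limma adjusted p = 0.115). Without frozen 24 h replicate 1 it stood at -5.37 at 24 h (limma adjusted p = 0.0227) and, with a smaller spread, passed at 48 h at an unchanged -4.28 (limma adjusted p = 0.0201). Without replicate 1 in each group it stood at -5.38 and -5.01 (limma adjusted p = 0.032 and 0.0323). The values as deposited gave -3.36 and -3.86 (limma adjusted p = 0.000161 and 2.64e-06). Those values keep the differences in brightness between arrays. Such p-values are smaller than the spread of DAN1 itself would give, with 269, 12.2 and 8.54 at 24 h, and are not read as support. At 48 h DAN1 passed too when arrays were scaled over every probe set (-4.62, limma adjusted p = 0.0469) and when only the groups compared were fitted (limma adjusted p = 0.0167).

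For DAN4 the signals were 6.92, 6.94 and 7.48 in unfrozen cells, 7.55, 7.10 and 6.15 at 24 h and 7.93, 7.11 and 6.06 at 48 h, with frozen arrays on both sides of the unfrozen ones. The differences were -0.18 ± 0.47 and -0.08 ± 0.47 (SE of 3 arrays a group; limma adjusted p = 0.918 and 0.949). Their 95% intervals were -1.22 to 0.86 and -1.12 to 0.96, and whether DAN4 differed from DAN1 in its change was not tested. In the values as deposited DAN4 stood at 0.11 and 0.34.

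PAU4 had signals of 8.01, 8.09 and 7.79 in unfrozen cells, 6.26, 6.27 and 5.80 at 24 h and 6.78, 5.76 and 6.22 at 48 h. All frozen arrays lay at least 1 log2 unit below all unfrozen arrays. The gene fell at both times, with log2 differences of -1.86 ± 0.26 at 24 h and -1.71 ± 0.26 at 48 h (SE of 3 arrays a group; limma adjusted p = 0.0121 and 0.00886). PAU18 had 8.63, 8.73 and 8.31 in unfrozen cells, 7.71, 7.35 and 7.10 at 24 h and 7.88, 7.33 and 7.27 at 48 h, and fell too, with differences of -1.17 ± 0.23 and -1.06 ± 0.23 (limma adjusted p = 0.0452 and 0.039). Both probe sets end in _x_at, the array's mark for probes that can also bind related sequences, so their signals may include other seripauperins. The other 6 genes were read by probe sets without this mark.

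These calls depended on the scaling of the arrays and on single arrays. Counts over all genes moved as well, from 0 to 139 at 24 h and from 0 to 265 at 48 h over the alternatives. With arrays left out, PAU4 ranged from -1.94 to -1.70 at 24 h and from -1.98 to -1.40 at 48 h. PAU18 then ranged from -1.33 to -1.03 and from -1.26 to -0.89. In the values as deposited, PAU4 stood at -1.56 and -1.29 (limma adjusted p = 0.842 and 0.841) and PAU18 at -0.88 and -0.64 (limma adjusted p = 0.999 and 0.952). In those units PAU18 overlapped, with 264 in frozen 24 h replicate 3 and 243 in unfrozen replicate 2. PAU4 no longer passed at 24 h without frozen 24 h replicate 3 (-1.70), and at either time without unfrozen replicate 1 (-1.83 and -1.69), without unfrozen replicate 2 (-1.79 and -1.65) or without replicate 2 in each group (-1.87 and -1.40). PAU18 was no longer called at either time without unfrozen replicate 1 (-1.13 and -1.03) or 2 (-1.08 and -0.98), frozen 24 h replicate 2 (-1.15 and -1.06), frozen 48 h replicate 2 (-1.17 and -0.98), or replicate 1 (-1.30 and -1.22) or 2 (-1.07 and -0.89) in each group. Its call also ended without frozen 24 h replicate 3 at 24 h (-1.03) and without frozen 48 h replicate 3 at 48 h (-0.95). Under quantile normalization and with no variance trend PAU18 missed the threshold at 24 h (limma adjusted p = 0.0518 and 0.0554), and at 48 h it missed it when only the groups compared were fitted (limma adjusted p = 0.0709).

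**Figure D2:**
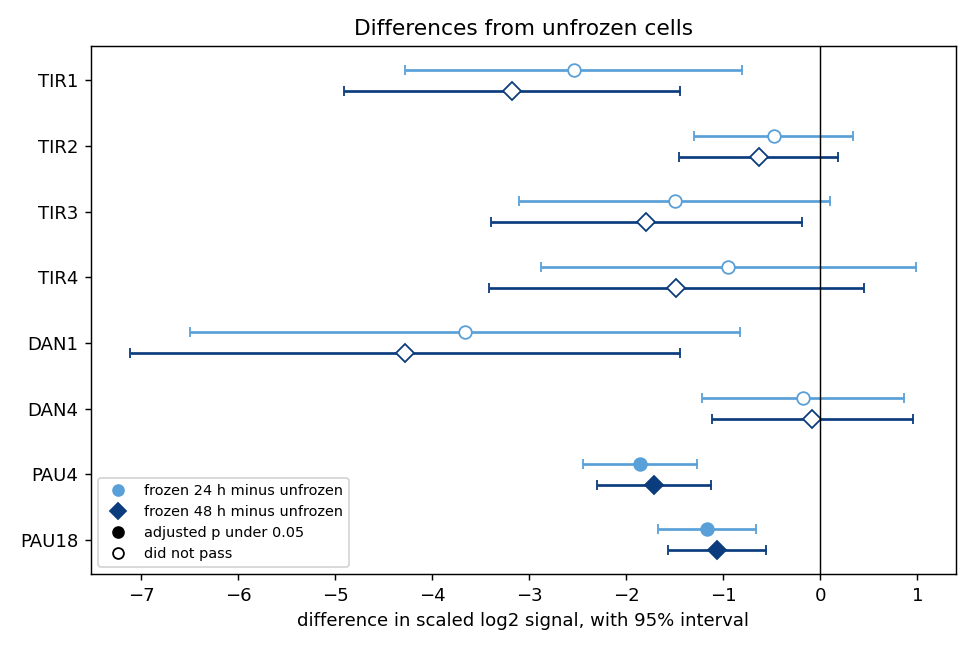
Difference in scaled log2 signal from unfrozen cells (horizontal axis) for each gene, with circles for 24 h, diamonds for 48 h and bars for 95% intervals; filled symbols passed the test. PAU4 and PAU18 have the narrow intervals and the filled symbols, and DAN1 the widest intervals, from -6.49 to -0.83 at 24 h.

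**Figure D3:**
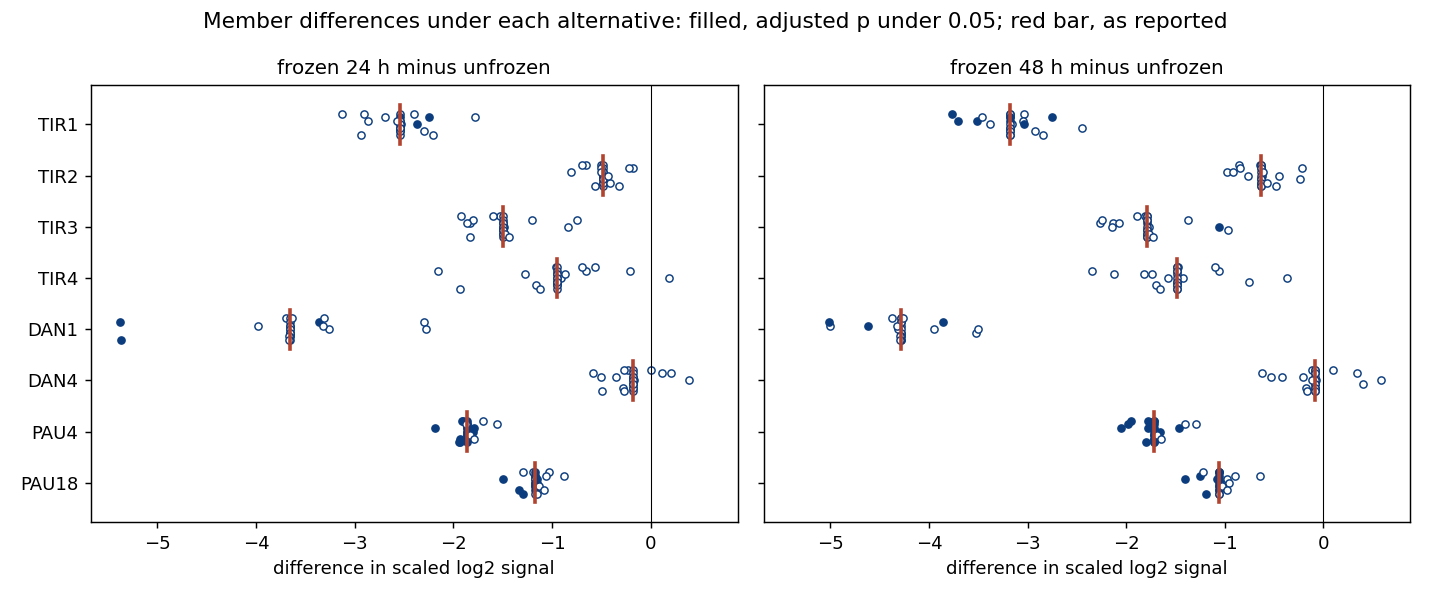
The same differences (horizontal axis) recomputed under each alternative processing or with arrays left out, 1 point per alternative, with a red bar for the reported value and filled points where adjusted p was under 0.05. TIR1 at 24 h ranges from -3.13 to -1.79 and PAU4 from -2.18 to -1.56, while points of DAN4 lie on both sides of 0.

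Between 48 h and 24 h of freezing none of the 8 genes passed, nor did any of the 5396 genes tested (0% called by limma; 22 genes, 0.408%, had an unadjusted p under 0.05, 0.167% of all genes on the lower side, and 0 of the 8 did). Differences for the 8 genes ran from -0.64 ± 0.78 for TIR1 to 0.14 ± 0.26 for PAU4 (SE of 3 arrays a group; limma adjusted p = 0.9998 for each). Between arrays of the same replicate number, deviations from the group means over all genes correlated at 0.589, 0.389 and 0.793. Arrays of different numbers were not compared in this way, so whether the numbers pair the arrays is not settled. Taken by replicate number, TIR1 was lower at 48 h each time, with differences of -0.36, -0.96 and -0.58, and so was TIR3, with -0.0036, -0.44 and -0.43. DAN1 was lower for replicate 1 (-2.59), where the 24 h array had been high, and higher for replicates 2 and 3 (0.14 and 0.59). The 95% interval for PAU4, -0.45 to 0.73, was the second narrowest after that of PAU18, -0.40 to 0.61, and that for DAN1 ran from -3.45 to 2.22.

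The genes varied together in part within groups. As a description over the 9 arrays, which share groups and replicate numbers, deviations from the group means of TIR1 and TIR2 correlated at 0.97 and those of TIR1 and TIR3 at 0.904. For TIR4 the highest values were with DAN1 (0.938) and DAN4 (0.924), against 0.569 with TIR1 and 0.541 with its neighbour TIR2. PAU4 and PAU18 correlated at 0.816, and PAU4 with TIR3 at 0.414. The arrays that stood out were replicate 3 of both frozen groups, low for all 4 TIR and both DAN genes, and frozen 24 h replicate 1, high for TIR4 and DAN1. The low reading was not particular to these genes. Replicate 3 was also the lowest of both frozen groups for CCW12, CWP1 and SED1, though the highest for CYC7. No background of such correlations over all genes was computed.

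Over the 9 arrays, the pattern of TIR1 was most like those of FAA4, a long-chain fatty acyl-CoA synthetase (Pearson r = 0.991), ATF2, an alcohol acetyltransferase (0.99), ROY1 (0.985), OLE1, the fatty acid desaturase (0.983), and HEM13, an enzyme of haem synthesis known to be induced in hypoxia (0.98). Of these, OLE1 and HEM13 passed at 48 h (-2.69 and -2.47, limma adjusted p = 0.031 and 0.0424), and none did at 24 h. PAU4 was most like VPS53, a subunit of a vesicle tethering complex (r = 0.984), PAU18 (0.971), the cell cycle inhibitor FAR1 (0.965), the sirtuin HST3 (0.96) and ICS2 (0.95). FAR1, HST3 and ICS2 fell at both times, with differences of -1.04 and -1.05 for FAR1, -1.12 and -1.13 for HST3 and -1.2 and -1.31 for ICS2. These r values rest on 3 groups of arrays and carry no test.

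**Figure D4:**
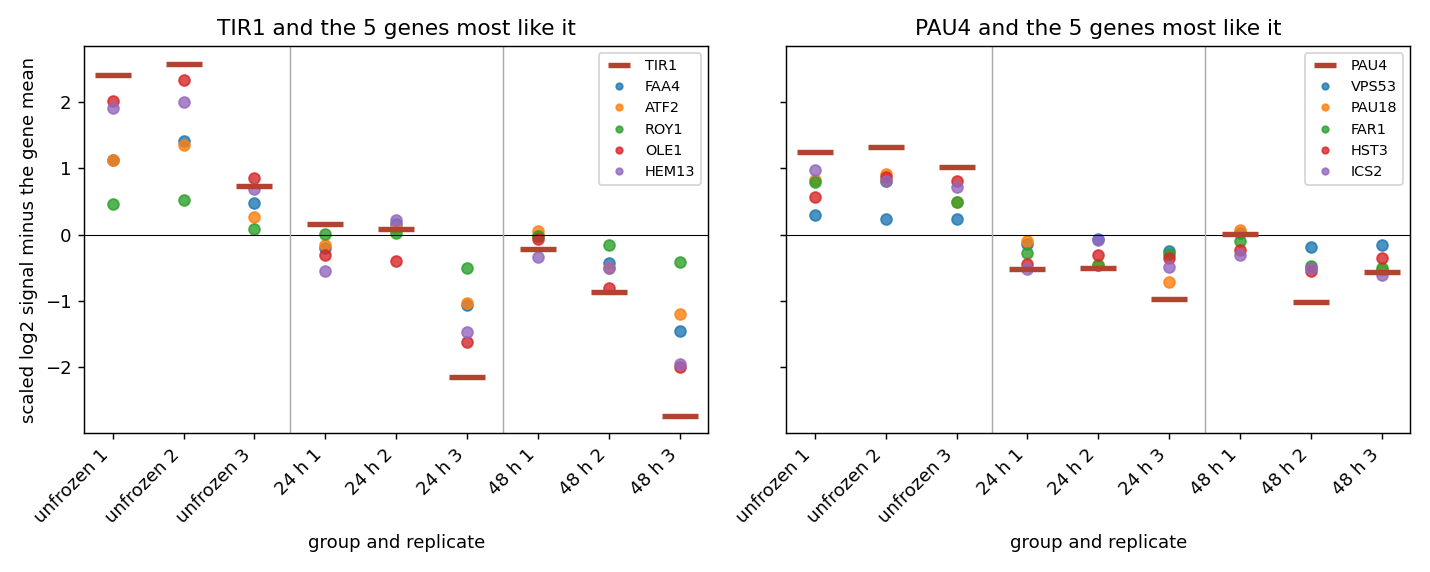
Scaled log2 signal minus the gene's mean over the 9 arrays (vertical axis) by group and replicate, for TIR1 (left) and PAU4 (right), drawn as bars, and the 5 genes with the highest Pearson r to each, drawn as dots. TIR1, OLE1 and HEM13 are lower in replicate 3 than in replicates 1 and 2 of every group.

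Of 24 other names of the seripauperin family (PAU genes, with DAN2 and DAN3), 11 had a probe set and 10 were tested. By limma 0 of the 10 were called at either time, and 2 were lower at unadjusted p under 0.05 each time, with 3.93% of all genes so at 24 h and 6.45% at 48 h. The median difference was -0.21 at 24 h and -0.25 at 48 h. The 2 were PAU8, at -1.0 ± 0.39 and -1.35 ± 0.39, and PAU14, at -0.84 ± 0.35 and -1.2 ± 0.35 (SE of 3 arrays a group; limma adjusted p = 0.368 and 0.113 for PAU8, 0.423 and 0.119 for PAU14). PAU23 stood at -0.70 ± 0.54 and -0.79 ± 0.54 and PAU9 at -0.25 ± 0.43 and -0.44 ± 0.43. PAU8, PAU14 and PAU9 were read by _x_at probe sets, as PAU4 and PAU18 were, so their signals may include other seripauperins. The tested set of PAU23 was of the _at type. A second probe set of PAU23, of the _x_at type, gave 0.28 and 0.30, so the sets of that gene pointed opposite ways.

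Among 21 other cell wall mannoproteins 0 were called, with a median of -0.11 at 24 h and -0.16 at 48 h and 1 lower at unadjusted p under 0.05 each time. At 3.93% of all genes lower at 24 h and 6.45% at 48 h, 1 of 21 is near the background. That gene was TIP1, the cold-induced relative of the TIR genes, at -1.81 ± 0.79 and -1.92 ± 0.79 (SE of 3 arrays a group; limma adjusted p = 0.454 and 0.267). Its signals were 12.82, 13.18 and 11.86 in unfrozen cells, 11.29, 11.73 and 9.42 at 24 h and 11.86, 11.37 and 8.86 at 48 h, again lowest in replicate 3 of each group and overlapping between 48 h and unfrozen arrays. TOS6 stood at -1.02 ± 0.57 and -0.91 ± 0.57, PIR1 at -0.50 ± 0.32 and -0.37 ± 0.32 and FIT2, which helps retain siderophore iron, at 1.17 ± 0.87 and 1.14 ± 0.87.

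The 12 other hypoxic and anaerobic genes had a median of -0.73 at 24 h, where 0 were called by limma and 6 were lower and 1 higher at unadjusted p under 0.05, with 3.93% of all genes lower and 10.7% in either direction. At 48 h the median was -0.83 and 5 of 12 fell, with 0.815% of all genes called lower. They were the desaturase OLE1 (-2.69 ± 0.55), HEM13 (-2.47 ± 0.54), the oxysterol-binding protein gene HES1 (-2.32 ± 0.49), the hypoxic translation factor gene ANB1 (-2.26 ± 0.47) and the anaerobic ADP/ATP carrier gene AAC3 (-1.41 ± 0.31), with limma adjusted p from 0.031 to 0.0433 (SE of 3 arrays a group). At 24 h the same genes stood at -2.50, -2.14, -1.72, -1.69 and -1.15 without passing. COX5B, the hypoxic form of a cytochrome oxidase subunit, was at -0.86 ± 0.25 and -0.99 ± 0.25. CYC7, the hypoxic cytochrome c isoform, stood the other way at 1.26 ± 0.42 and 1.30 ± 0.42, and the sterol genes ERG25 and ERG11 at -0.61 ± 0.37 and -0.47 ± 0.37 at 24 h.

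None of 10 regulators of hypoxic genes was called by limma at either time, and 2 were lower at unadjusted p under 0.05 each time, with 3.93% of all genes so at 24 h and 6.45% at 48 h. Their median was -0.26 at 24 h and -0.30 at 48 h. MGA2, the membrane-bound activator of OLE1, stood at -0.91 ± 0.25 and -0.93 ± 0.25 (SE of 3 arrays a group; limma adjusted p = 0.164 and 0.0924), and HAP1, the haem-responsive activator, at -0.68 ± 0.24 and -0.62 ± 0.24. The co-repressor gene TUP1 was at -0.96 ± 0.46 and -0.66 ± 0.46, and MOT3, a repressor of DAN and TIR genes, at -0.58 ± 0.32 and -0.51 ± 0.32.

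The 13 other cold-induced genes split. At 24 h 4 rose, where 0.797% of all genes were called higher: HSP12, a membrane-associated stress protein (3.51 ± 0.31), the Hsp70 gene SSA4 (2.42 ± 0.29), the glycogen branching enzyme gene GLC3 (1.21 ± 0.19) and the small heat shock protein gene HSP42 (1.21 ± 0.18), with limma adjusted p from 0.00246 to 0.0152 (SE of 3 arrays a group). At 48 h these 4 and the disaggregase HSP104 (1.18 ± 0.23) rose, with 2.09% of genes called higher, and OLE1 fell. HSP26 stood at 1.83 ± 0.55 and 2.14 ± 0.55 without passing, LOT5 at -0.32 ± 0.21 and -0.19 ± 0.21, and LOT6 at 0.27 ± 0.21 and 0.01 ± 0.21. TIP1, which the mannoprotein list also holds, stood at -1.81 ± 0.79 and -1.92 ± 0.79 without passing. At unadjusted p under 0.05 (limma), 2 of the 13 were lower and 6 higher at 24 h, and 2 lower and 7 higher at 48 h. Of all genes, 10.7% and 16.4% were so in either direction. The median of the list was 0.27 at 24 h and 0.84 at 48 h, beside -1.34 and -1.60 for the 8 TIR, DAN and PAU genes.

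**Figure D5:**
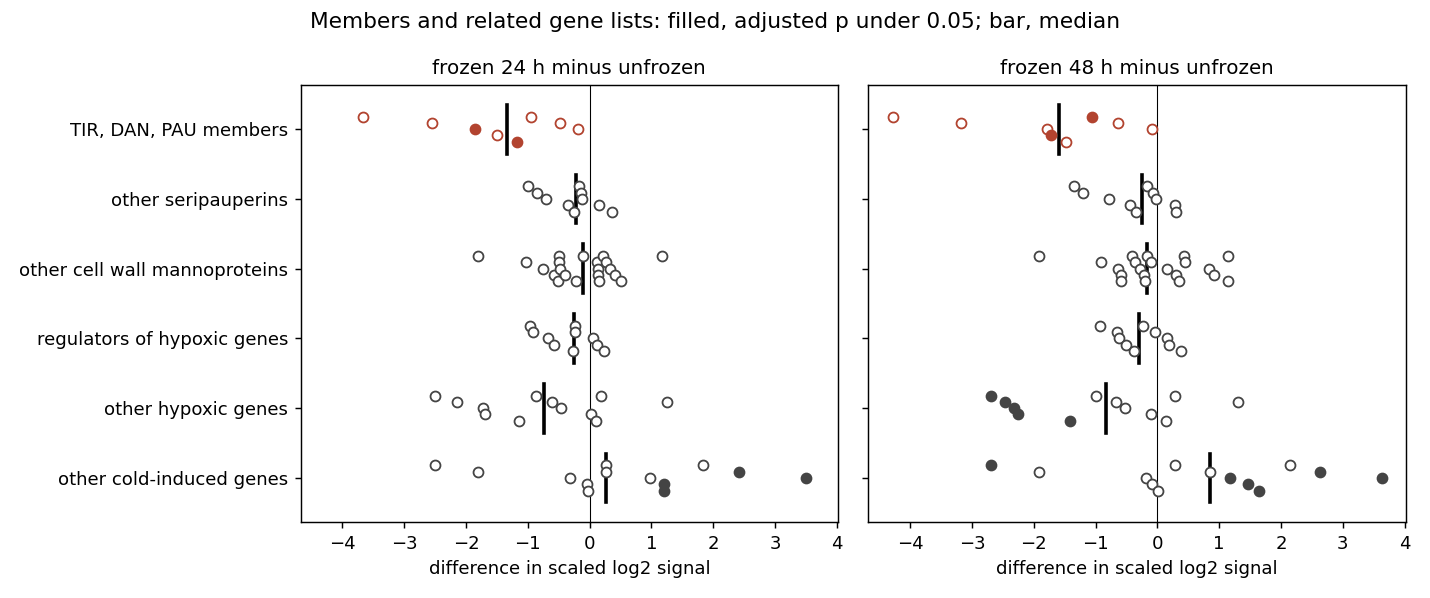
Differences in scaled log2 signal from unfrozen cells (horizontal axis) at 24 h (left) and 48 h (right) for the 8 genes and 5 related lists, 1 dot per gene, filled where adjusted p was under 0.05, with a bar at each list's median. The 5 filled dots of the hypoxic list at 48 h are all below 0, and those of the cold-induced list are above 0 except for OLE1, which both lists hold.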

How the data were processed

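Per the labels' protocols, 9 samples of RNA enriched for poly(A) (3 unfrozen, 3 frozen over 24 h, 3 over 48 h) were each hybridised to an Affymetrix yeast array. The authors deposited a linear intensity per probe set, made with GCOS per the submitters' processing notes, which name no version. Descriptions of the samples speak of GeneSpring 7.3.1, per-chip scaling to the 50th percentile and per-gene division by unfrozen samples, steps that the deposited values do not show. Symbols came from the platform annotation, updated through gene identifiers to RefSeq's R64 table. Of the probe sets, 5498 matched 1 S. cerevisiae gene and 1746 a S. pombe gene.

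Log2 intensities were shifted per array to a common median of the S. cerevisiae probe sets. A mean above 2.21, the 95th percentile of S. pombe means, was required, and the brightest probe set stood for its gene. Groups were compared with limma 3.58.1 in R 4.3.3 (9 arrays, eBayes with a trend, two-sided, Benjamini-Hochberg over 5396 genes, threshold 0.05). The procedure was tested on data simulated with independent noise of capped spread. Those data hold no replicate effect and less spread than DAN1 had in frozen cells, so they do not cover such genes. The 8 genes and the lists were chosen with earlier results of these data known, and support nothing by their direction. Named are all 8 genes, every list gene that passed, up to 4 others per list with the smallest unadjusted p (24 h first), and the 5 genes most like TIR1 and PAU4. Alternatives changed scaling, pseudocount (4), filter, trend, arrays fitted, replicate block, replicate 3 as a term (the protocol wording of those arrays differs from most others), probe sets, fold minimum (2) and arrays left out. Between 24 h and 48 h arrays of the same number, deviations correlated at 0.389 to 0.793 over all genes. Different numbers were not compared, so a pairing of these arrays is not settled. The numbers showed no steady pairing of frozen and unfrozen arrays over all genes. No 2 arrays shared more than 0.00915% of values, so none was counted as a repeat. The number of arrays limits the precision.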

Additional observations from a re-analysis of the deposited data

How the results depend on the processing

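The count of 2 of 8 genes called lower than unfrozen cells at 24 h became 1 under quantile normalization and with no trend, and 0 with only _at probe sets, which leaves out PAU4 and PAU18, and 3 with replicate 3 as a term. That term called TIR1 at both times (adjusted p = 0.000315 and 0.000176). With arrays left out it ranged from 0 to 3. At 48 h the count of 2 became 4 with arrays scaled over every probe set and with replicate 3 as a term, 0 with only _at probe sets, and 0 to 4 with arrays left out. The replicate block gave 3 genes at 24 h and 4 at 48 h, with TIR1 called at both times (adjusted p = 0.00106 and 0.000497). Between frozen and unfrozen arrays of one number, deviations over all genes correlated at -0.382 to 0.247, which shows no steady pairing. A replicate effect on single genes was not tested, and TIR1 was lowest in replicate 3 of every group. Between 48 h and 24 h 0 genes were called under every alternative run, a replicate block on those groups alone, chosen after seeing the data, included. In the values as deposited 2 genes were called at each time, but they were TIR1 and DAN1, and DAN4 turned to 0.11 and 0.34. Differences in brightness between arrays remain in the deposited values, so these calls are not read as support for either gene. With those values the median of all genes moved to 0.28 at 24 h and 0.40 at 48 h, and to -0.34 and -0.37 with arrays scaled over every probe set. Over all genes, the counts of 54 at 24 h and 157 at 48 h ranged from 0 to 139 and from 0 to 265 over the alternatives.

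With arrays left out, the 24 h difference ranged from -0.59 to 0.39 for DAN4 and from -2.15 to 0.18 for TIR4, and the 48 h difference of DAN4 from -0.63 to 0.58. The differences of 48 h from 24 h, none called, ranged from -1.98 to 1.09 for DAN1, -0.35 to 0.59 for DAN4, -0.085 to 0.27 for PAU18, -0.12 to 0.47 for PAU4, -1.39 to 0.10 for TIR1, -0.43 to 0.25 for TIR2, -1.04 to 0.53 for TIR3 and -1.28 to 0.45 for TIR4. TIR1, TIR2, TIR3, DAN1, PAU4 and PAU18 kept their sign against unfrozen cells in both comparisons under every alternative run, although PAU4 and PAU18 have none with only _at probe sets. The cause of these shifts was not tested.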

Other observations

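Several seripauperins other than PAU4 and PAU18, singled out after their values were seen, ranged more widely within groups than their group means did. PAU3, read by an _s_at probe set that can bind related genes, had scaled log2 signals of 1.37, 3.07 and 6.70 in unfrozen replicates 1 to 3, 6.12, 3.40 and 2.71 at 24 h and 3.69, 3.95 and 3.45 at 48 h. PAU24, read by an _x_at probe set, had 5.08, 5.34 and 6.65 in unfrozen cells, 6.67, 5.14 and 4.23 at 24 h and 6.11, 5.14 and 4.79 at 48 h. The high arrays were unfrozen replicate 3 and frozen 24 h replicate 1, the same 2 arrays on which TIR4 was highest, at 8.65 and 8.91. PAU5 had 2 probe sets, and its _at set had 4.76, 5.01 and 6.24 in unfrozen cells, 6.10, 4.52 and 4.85 at 24 h and 6.05, 4.86 and 4.59 at 48 h, so that it was high on these arrays and on frozen 48 h replicate 1. PAU21, also an _s_at probe set, had a mean of 0.54, under the background threshold of 2.21, and was not tested.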
